A study of Mus musculus with 24 samples.

Results

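The enteroendocrine genes examined were Chga, Chgb, Pyy, Gcg, Insl5, Sst, Cck, Tph1 and Neurod1, 9 of the 27962 gene names on a two-colour Agilent mouse array. They were chosen by name, with every probe that carries the name, and the probe of highest mean intensity stood for the gene. RNA came from the whole colon and the liver of 12 female C57BL/6 mice aged 12 weeks, so that every layer of the colon wall contributed to the colon RNA. The dams of all 12 had been fed HF-Low, a high fat diet with little selenium and folate, from 7 days before mating until the end of lactation. After weaning at about 28 days, 6 offspring stayed on this diet (HF-low-low) and 6 received a high fat diet whose selenium and folate were adequate (HF-low-suf). The mice had been fasted and fed again before sampling. Each array held the Cy3-labelled RNA of 1 tissue of 1 mouse and a Cy5-labelled reference pool, which the labels describe as colon and liver RNA of all the mice and the series text as RNA of intestine and liver. Values are log2 ratios of Cy3 to Cy5, so that 0 means a signal equal to that of the pool.

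Enteroendocrine cells are scattered single cells of the gut epithelium that release peptide hormones and serotonin in response to food and bacterial products. L cells of the distal gut make peptide YY, the proglucagon peptides and insulin-like peptide 5, D cells make somatostatin, and enterochromaffin cells make serotonin through tryptophan hydroxylase 1. The hormones are cut from larger precursors and stored with chromogranins in dense-core granules. Cholecystokinin is made mainly by I cells of the upper small intestine, and NEUROD1 is a transcription factor of enteroendocrine differentiation.

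The promoters of the 2 pairs of genes that varied most closely together between colons, Chga with Chgb and Pyy with Sst, are shown first. They are the 250 bases before the RefSeq start in GRCm38.p6, written along the gene's strand, with matches to TGACG or its reverse complement CGTCA in capitals. Overlapping copies of the pair form TGACGTCA, the cAMP response element. The windows are chr12:102554691-102554940 on the plus strand for Chga, chr2:132781392-132781641 on the plus strand for Chgb, chr11:102107777-102108026 on the minus strand for Pyy, and chr16:23890845-23891094 on the minus strand for Sst.
Chga: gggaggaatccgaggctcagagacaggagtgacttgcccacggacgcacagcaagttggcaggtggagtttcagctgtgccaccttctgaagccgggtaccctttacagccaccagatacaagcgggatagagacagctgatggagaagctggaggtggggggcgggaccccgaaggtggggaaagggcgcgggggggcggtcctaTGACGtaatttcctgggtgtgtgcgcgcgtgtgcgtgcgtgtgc
Chgb: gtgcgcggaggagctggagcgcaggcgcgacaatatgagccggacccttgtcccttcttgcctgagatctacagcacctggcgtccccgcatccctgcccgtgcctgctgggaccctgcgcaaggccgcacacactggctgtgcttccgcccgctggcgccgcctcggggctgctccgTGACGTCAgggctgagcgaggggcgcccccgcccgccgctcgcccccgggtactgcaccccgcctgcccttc
Pyy: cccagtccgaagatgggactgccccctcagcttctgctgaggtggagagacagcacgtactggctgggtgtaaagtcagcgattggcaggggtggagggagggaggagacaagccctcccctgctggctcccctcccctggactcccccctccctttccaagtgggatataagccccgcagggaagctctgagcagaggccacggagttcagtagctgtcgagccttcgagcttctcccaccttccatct
Sst: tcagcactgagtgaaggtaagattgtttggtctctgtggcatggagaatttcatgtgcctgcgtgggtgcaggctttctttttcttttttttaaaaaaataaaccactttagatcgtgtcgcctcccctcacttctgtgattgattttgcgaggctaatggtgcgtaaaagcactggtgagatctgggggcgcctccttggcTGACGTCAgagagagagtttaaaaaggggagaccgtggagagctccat
The whole element TGACGTCA lay in the windows of Chgb and Sst, starting 72 and 48 bases before the start. It was found in 1.55% of 32851 promoter windows of this length, searched on both strands. The shorter TGACG was found in 17.8% of windows and in those of 5 of the 9 genes, Chga, Chgb, Sst, Cck and Tph1. In Chga it began 44 bases before the start. The E-box CAGATG, searched on both strands, lay in 14.4% of windows and in those of Gcg, which held it at 2 places, Insl5 and Cck. Neither window of Pyy, which has 2 RefSeq starts, held any of these letters. Each match is a description of the sequence and was not tested for function.

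Arrays had a median Cy3 signal between 3.78 and 7.2 times the local background, and 26.1% to 71.9% of spots were well above background. The colon array of HF-low-suf replicate 5 stood apart, with a median Cy5 signal of 18.1 times background, and the liver array of HF-low-suf replicate 4 with 12.7 times. Over the other 22 arrays this value ran from 5.41 to 7.54. The liver array of HF-low-suf replicate 4 also had 8.75% of its spots flagged as outliers. On all other arrays this share was 0.267% to 0.768%. Each slide carried 1 array of every group, both tissues of a mouse shared a slide, and 3 slides were scanned on each of 2 days. Of the marker genes of the 2 tissues, 9 of 9 of colon epithelium and 6 of 6 of smooth muscle were higher in colon, and 5 of 5 measured of hepatocytes were higher in liver.

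The first comparison asked how the 9 genes differed between colon and liver of the same mice. Chga, Chgb, Pyy, Gcg, Sst and Tph1 were higher in colon than in liver by 2.64 to 6.51 on the log2 scale, with no overlap between the 12 colon and the 12 liver arrays. Insl5 and Cck were higher in colon by 0.98 and 0.67, with overlapping arrays. The liver signal of these 8 genes was well above background on 1 to 8 of 12 arrays, so that the size of each difference depends on a liver level near background. Neurod1 was not well above background on any of the 24 arrays. A probe was called at a Benjamini-Hochberg adjusted P below 0.05 in limma, over 41174 probes, with a fold change above 1.5. By this rule 8 of the 9 genes were higher in colon and 0 in liver, where 23.5% of all probes were called in either direction and 12.2% were higher in colon. The 6 genes whose tissues did not overlap compare with 6.49% of all probes that lay higher on every colon array than on every liver array. In whole tissue, fewer cells of a type and less RNA per cell cannot be told apart.

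**Figure D1:**
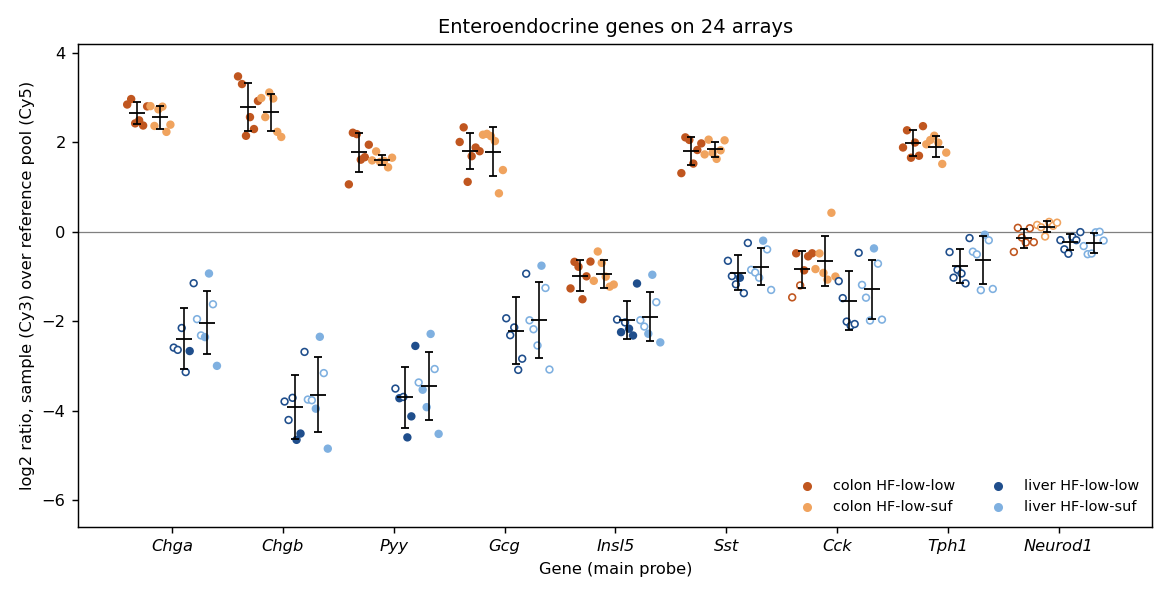
Log2 ratio of sample to reference pool (vertical axis) for the main probe of each gene (horizontal axis), 1 point per array in 4 groups of 6 mice; filled points were well above background in Cy3, open points were not, and black bars give the mean and SD of a group. Chga, Chgb, Pyy, Gcg, Sst and Tph1 sit above 0 on every colon array and below 0 on every liver array, while Insl5 sits below 0 on all 24.

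Chga encodes chromogranin A, a core protein of the granules. Its log2 ratio on the 12 colon arrays was 2.23 at the lowest, 2.62 at the median and 2.97 at the highest. On the 12 liver arrays it was -3.14, -2.34 and -0.93 in the same order. The Cy3 signal was 218.1 to 587.8 times background in colon and 3.44 to 9.80 times in liver, where 4 of 12 arrays were well above background. The difference of colon minus liver was 4.82 on the log2 scale (SE 0.17, n = 12 mice, adjusted P of 1.6e-12 in limma). It was positive in 12 of 12 mice, with the smallest P of 0.000488 that an exact sign-change test of 12 mice can give.

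Chgb encodes chromogranin B and was measured on 10 spots per array. In colon the log2 ratios ran from 2.12 through a median of 2.75 to 3.48, and in liver from -4.85 through -3.78 to -2.35. Its Cy3 signal in colon was 478.6 to 1969.4 times background, and 5 of 12 liver arrays had a signal well above background. The difference was 6.51 (SE 0.20, adjusted P of 2.3e-13 in limma). A second probe with this name, designed on another cDNA (AK044172), stayed near background in Cy3 on all 24 arrays and has no usable fold change.

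Pyy encodes peptide YY, a hormone of L cells that slows gut transit and reduces appetite. Its main probe had colon log2 ratios from 1.06 through 1.63 to 2.22 and liver ratios from -4.60 through -3.61 to -2.29. The liver signal was 4.39 to 10.2 times background, and 8 of 12 liver arrays passed as well above it. The difference was 5.27 (SE 0.19, adjusted P of 2.8e-12 in limma). A second Pyy probe measured a smaller difference of 2.42 (SE 0.17, adjusted P of 1.0e-08 in limma), and it was positive in 12 of 12 mice as well. Over the 12 colons the log2 ratios of the 2 probes had a Pearson correlation of 0.81. The sequence of the second probe, which lies at chr11:102216036-102216095 on the minus strand in build mm7 per the array files, is shown because its difference was less than that of the main probe.
Pyy, second probe: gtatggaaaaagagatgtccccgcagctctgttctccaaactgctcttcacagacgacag

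Gcg encodes proglucagon, the precursor of glucagon-like peptides in L cells and of glucagon in the pancreas. Its colon log2 ratios were 0.86 at the lowest, 1.95 at the median and 2.34 at the highest, and its liver ratios -3.09, -2.16 and -0.76. All 12 colon arrays but 1 of 12 liver arrays had a Cy3 signal well above background. The difference was 3.89 (SE 0.24, adjusted P of 1.4e-09 in limma). The second Gcg probe, designed on the cDNA AK050538, was well above background on 1 colon array and 0 liver arrays, and its difference was 0.05 (SE 0.12).

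Insl5 encodes insulin-like peptide 5, an L cell hormone of the colon. It was well above background on 12 of 12 colon arrays, at 15.9 to 30.2 times background, and on 7 of 12 liver arrays, at up to 9.08 times. The colon log2 ratios ran from -1.51 through -1.001 to -0.44 and the liver ratios from -2.48 through -2.08 to -0.96. The arrays of the 2 tissues overlapped. The difference was 0.98 (SE 0.15, adjusted P of 6.9e-05 in limma) and was positive in 11 of 12 mice, with a P of 0.000977 in the exact sign-change test.

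Sst encodes somatostatin, which restrains the release of other gut hormones and is made by D cells and by enteric neurons. Over its 10 spots the colon log2 ratios ran from 1.31 through 1.83 to 2.11 and the liver ratios from -1.37 through -0.95 to -0.20. All 12 colon arrays and 2 of 12 liver arrays were well above background. The difference was 2.67 (SE 0.14, adjusted P of 3.5e-10 in limma).

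Tph1 encodes the enzyme that limits serotonin synthesis in enterochromaffin cells, and mast cells use it too. Its main probe had colon log2 ratios from 1.52 through 1.97 to 2.36 and liver ratios from -1.31 through -0.68 to -0.07. Well above background were 12 of 12 colon arrays and 1 of 12 liver arrays, and the difference was 2.64 (SE 0.14, adjusted P of 2.5e-10 in limma). The second probe of Tph1 was well above background on 8 of 12 colon arrays and on no liver array. It was at least 1.41-fold higher in colon, with an adjusted P of 1.6e-05 in limma. Such a bound sets the mean colon signal against the liver signal raised on each array to the lowest signal well above background, and it can carry a dye effect, since that lowest signal comes from other probes and no dyes were swapped. The second probe lies at chr7:42833417-42833476 on the minus strand in mm7.
Tph1, second probe: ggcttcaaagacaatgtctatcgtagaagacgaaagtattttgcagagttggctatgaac

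Cck encodes cholecystokinin, which stimulates gallbladder contraction and pancreatic secretion. Its colon log2 ratios were -1.47 at the lowest, -0.85 at the median and 0.42 at the highest, and its liver ratios -2.10, -1.48 and -0.37. The highest colon value was that of HF-low-suf replicate 5, the array with the bright Cy5 signal. Cck was well above background on 10 of 12 colon arrays, at most 16.6 times background, and on 1 of 12 liver arrays. The difference was 0.67 (SE 0.18, adjusted P of 0.0080 in limma) and was positive in 9 of 12 mice, with a P of 0.0112 in the exact sign-change test. The second Cck probe, designed on BC028487, was well above background on 1 colon array and 0 liver arrays.

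The Cy3 signal of Neurod1 was 2.12 to 4.02 times background in colon and 1.86 to 3.79 times in liver, below the level taken as well above background on every array. Its reference signal was not well above background either. No fold change between tissues is therefore given, and this array gave no measurement of Neurod1 in either tissue.

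**Figure D2:**
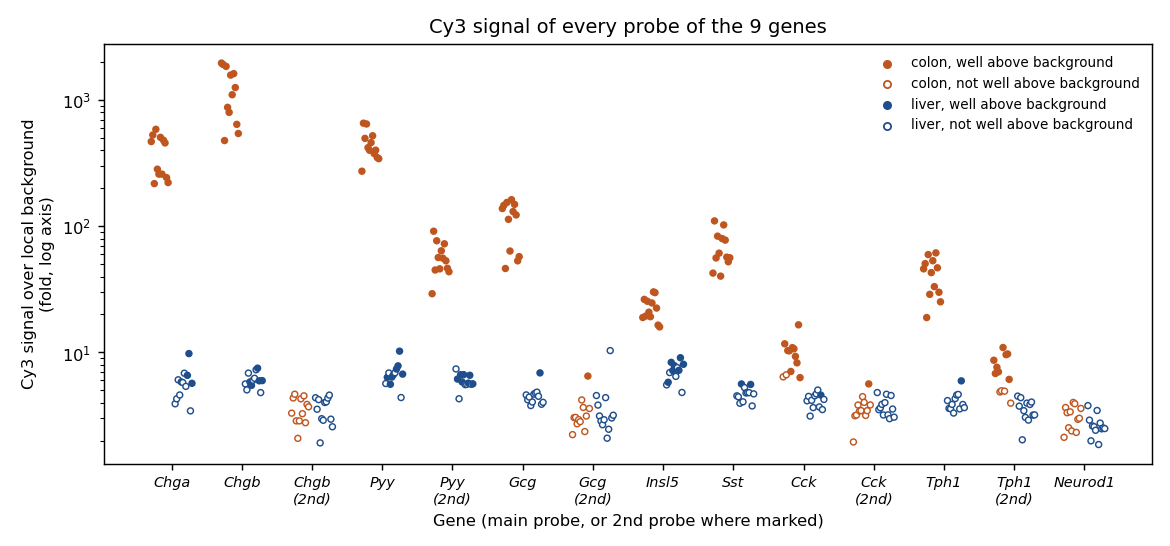
Cy3 signal divided by local background (vertical log axis) for each of the 14 probes of the 9 genes (horizontal axis), 1 point per array, 12 colon and 12 liver arrays; open points were not well above background. The main probes of Chga, Chgb, Pyy, Gcg, Sst, Tph1 and Insl5 stand clear of background on all 12 colon arrays, the second probes of Chgb, Gcg and Cck and the probe of Neurod1 do not.

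The level of the reference pool bears on every ratio. If the pool were made of equal parts of these colons and livers, the mean linear ratio of a gene over the 24 arrays would lie near 1. This holds only apart from effects of dye and normalization. The dyes were not swapped and each array was centred by loess, so these effects and the make-up of the pool cannot be told apart. It was 3.20 for Chga, 3.51 for Chgb, 2.27 for Tph1, 2.08 for Sst, 1.95 for Gcg and 1.70 for Pyy. For Insl5 and Cck it was 0.400 and 0.522, and their ratios lay below 0 on 24 of 24 and 23 of 24 arrays. For Alb1, the albumin of hepatocytes, the mean ratio was 0.95, and for Krt20, a keratin of colon epithelium, 0.455. Lct, the lactase of the small intestine, and Fabp2, a fatty acid binding protein of enterocytes, were picked after their values were seen. Lct had mean log2 ratios of -4.46 in colon and -4.21 in liver, Fabp2 of -1.85 and -2.73, and both lay below 0 on 24 of 24 arrays. Pnlip, the pancreatic lipase, was picked in the same way and had mean log2 ratios of -4.32 in colon and -3.30 in liver, with Cy3 signals well above background on 1 of 12 colon and 2 of 12 liver arrays. Hoxb13 and Gip were set against the pool too. Hoxb13 had mean log2 ratios of -2.33 in colon and -1.66 in liver, below 0 on 24 of 24 arrays. For Gip they were -2.02 and -1.02, below 0 on the 23 arrays that measured it. Both genes were dim, with a Cy3 signal that passed in 1 colon each, and in 1 liver for Hoxb13 and 0 for Gip. Whether the pool held other tissue was not tested. The same pool was on every array, so its level largely cancels in the difference between tissues. It does enter the loess, which uses both channels. With the Cy3 channel alone the same 8 genes were called, each with a larger difference. The differences were then 5.97 for Chga, 7.49 for Chgb, 5.84 for Pyy and 4.38 for Gcg. For Sst, Tph1, Insl5 and Cck they were 3.55, 3.02, 1.165 and 0.94.

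The other genes of the secretory pathway were taken from lists. Of 23 genes for prohormone processing and granules, 22 were measured, 15 were higher in colon, 0 were higher in liver and 7 were not called. The median difference of the list was 0.98, beside -0.02 over all probes. Cpe, the carboxypeptidase that trims cut prohormones, had a difference of 4.25 (SE 0.28, adjusted P of 4.4e-09 in limma). Pcsk1, the convertase that cuts proglucagon in L cells, was well above background on 12 of 12 colon arrays and 0 of 12 liver arrays. It was at least 8.01-fold higher in colon, with an adjusted P of 3.1e-12 in limma. Snap25, a protein of the vesicle fusion machinery, was at least 3.27-fold higher, and Scg3, secretogranin III, had a difference of 2.48 (SE 0.16). In liver Cpe was well above background on 2 of 12 arrays and Scg3 on 1. Snap25 and several others of this list are also used by neurons.

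**Figure D3:**
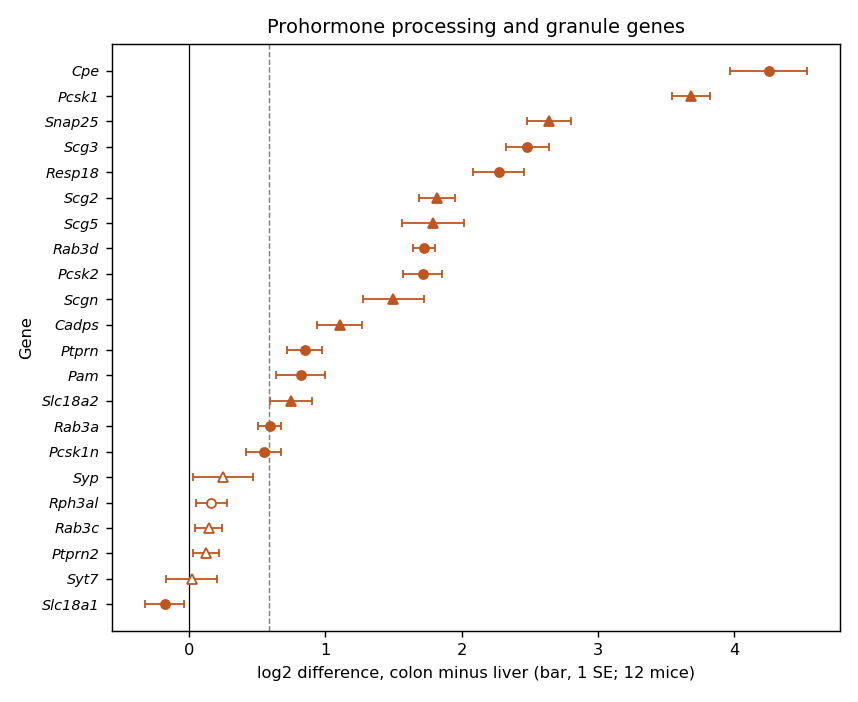
Log2 difference of colon minus liver (horizontal axis; bars, 1 SE over 12 mice) for 22 genes of prohormone processing and granules (vertical axis); open points were well above background on fewer than 6 colon arrays, triangles on no liver array, so that the size of their difference rests on a dim liver signal, and the dashed line marks a 1.5-fold change. The 15 called genes lie to the right of the dashed line, and Slc18a1 lies at -0.18.

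Of 9 other gut hormones 5 were higher in colon and 1, Gip, was called higher in liver, although Gip was well above background on 1 colon array and 0 liver arrays. Sct, the precursor of secretin, had a difference of 4.74 (SE 0.19, adjusted P of 6.3e-12 in limma) and Nts, neurotensin, one of 4.34 (SE 0.20, adjusted P of 4.7e-11 in limma). Well above background in liver were 12 of 12 arrays for Sct and 1 of 12 for Nts. Tac1, the precursor of substance P, and Ppy, pancreatic polypeptide, were dim on every liver array and at least 4.40-fold and 1.80-fold higher in colon. The median of this list was 1.26.

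Among 13 transcription factors of enteroendocrine cells, 1 was called between tissues. This was Pax4, well above background on 6 of 12 colon arrays and at least 1.15-fold higher in colon (adjusted P of 7.0e-05 in limma). Of the 13, 2 passed as well above background on 6 or more colon arrays and 5 on no array, and the list's median was 0.23.

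For serotonin, Maoa, which degrades it, was higher in colon by 5.34 (SE 0.13, adjusted P of 1.3e-14 in limma). Gch1, which makes the cofactor of tryptophan hydroxylase, and Ddc, the decarboxylase that follows it, were higher in liver, with differences of -3.15 (SE 0.13) and -1.58 (SE 0.11). The vesicular transporter Slc18a2 was dim on every liver array and at least 1.02-fold higher in colon. In all 2 of 9 genes were higher in colon and 2 in liver, with a median of -0.16. Of 9 mast cell genes, Kit was higher in colon by 2.29 (SE 0.14), Hdc was higher in liver, with a difference of -1.30 (SE 0.15), and 7 were not called. The mast cell proteases and receptor genes Cpa3, Cma1, Mcpt4, Tpsb2, Tpsab1, Ms4a2 and Fcer1a were well above background on 5 colon arrays at most.

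Of the sensors by which enteroendocrine cells detect gut contents, 7 of 9 were measured and 3 were higher in colon. Ffar2, a receptor of short-chain fatty acids, had a difference of 3.07 (SE 0.27, adjusted P of 1.5e-07 in limma), and Slc5a1, the sodium-glucose transporter, one of 1.70 (SE 0.13). Ffar2 was well above background on 1 of 12 liver arrays and Slc5a1 on 12. Ffar4, a receptor of long-chain fatty acids that the array names Gpr120, was at least 5.49-fold higher in colon. The list's median was 0.16. Of the receptors of the member hormones, 13 of 14 were measured, 3 were higher in colon and 1 in liver, with a median of 0.01. Gcgr, the glucagon receptor, was higher in liver, with a difference of -6.64 (SE 0.12, adjusted P of 3.6e-16 in limma). Npy4r, a receptor of the pancreatic polypeptide family named Ppyr1 on the array, had a difference of 2.48 (SE 0.12) with 1 of 12 liver arrays well above background, and Cckar, the cholecystokinin A receptor, was at least 1.37-fold higher in colon.

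Marker genes of other cells that use some of the same genes were measured beside them. Of 12 genes of enteric neurons and glia 8 were higher in colon and 0 in liver, among them Uchl1 with a difference of 3.54 (SE 0.18) and Vip with 3.28 (SE 0.33). In liver these were well above background on 3 and 1 of 12 arrays. The mean log2 ratio over this list lay between 0.87 and 1.55 on the colon arrays and between -0.45 and -0.00487 on the liver arrays. Elavl4 and S100b were dim in every liver and at least 3.92-fold and 4.22-fold higher in colon. Of 13 measured pancreatic genes 7 were called higher in liver and 1 in colon. Only 4 of the 13 were well above background on 6 or more colon arrays, and 5 on 6 or more liver arrays. Several of these differences thus rest on signals near background in both tissues. Slc2a2, a glucose transporter that hepatocytes also use, was dim in every colon and at least 54.1-fold higher in liver. Of the pancreatic enzymes, Cela1 had a difference of 0.93 (SE 0.19), Cela3b of -0.85 (SE 0.20) and Cel of -0.62 (SE 0.14). Cela1 was well above background on 12 colon and 2 liver arrays, Cela3b on 4 and 7, and Cel on 12 and 9. The islet hormones Ins1 and Ins2 were well above background on 1 of 12 colon arrays each, and on 0 and 1 liver arrays. The part of neurons in the colon level of the granule genes was not tested.

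The second comparison asked whether the 9 genes differed between the diets in the colon. No member was called, and the differences of HF-low-suf minus HF-low-low of the 8 measured genes lay between -0.18 for Pyy and 0.19 for Cck on the log2 scale. A positive value means higher in HF-low-suf, by the dyes in the labels. The study's lists of genes that differed between the diets define the sign in the same way, but nearly all of the probes they name had the opposite sign here. In the study's own tables Errfi1 and Dmbx1 appear with both signs. The study also found slightly more selenium in the liver of HF-low-suf mice, a measure of the animals that does not check the labels of the arrays. The marker genes of the 2 tissues bear out the direction of the ratio and do not check the diet labels, so the direction of the diet differences is not settled. The threshold was an unadjusted P below 0.01 in limma with a fold change above 1.5, which 0.168% of the 41174 probes passed. At an unadjusted P below 0.05 there were 2.98% of all probes and 0 of the 9 main probes. After Benjamini-Hochberg adjustment in limma no probe of the array passed 0.05.

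In colon, the log2 ratios of Chga in HF-low-low mice were 2.38 at the lowest, 2.65 at the median and 2.97 at the highest. In HF-low-suf mice they were 2.23, 2.57 and 2.81. The ranges of the diets overlapped, and the difference was -0.09 (SE 0.16, 95% interval -0.43 to 0.24, n = 6 per diet, exact permutation P of 0.530). For Chgb the values were 2.15, 2.74 and 3.48 in HF-low-low and 2.12, 2.77 and 3.12 in HF-low-suf. Its difference was -0.12 (SE 0.25, 95% interval -0.64 to 0.40, exact permutation P of 0.675). Both granule proteins thus had medians within 0.1 of each other between diets.

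The Pyy log2 ratios were 1.06, 1.81 and 2.22 (lowest, median, highest) in HF-low-low and 1.44, 1.59 and 1.80 in HF-low-suf colons. All 6 HF-low-suf values lay within the range of the HF-low-low group, whose SD was 0.43 beside 0.12. The second probe had SDs of 0.51 and 0.14 in the same order. The wider spread rests partly on HF-low-low replicate 1, at 1.06 and 0.43 on the main and second probes. The next lowest values of its group were 1.61 and 1.07. The difference of the main probe was -0.18 (SE 0.18, 95% interval -0.56 to 0.21, exact permutation P of 0.355), and that of the second probe was 0.03 (SE 0.20). Without HF-low-low replicate 1, which had the lowest Pyy value, the main probe gave -0.32, with an unadjusted P of 0.047 in limma. This was the lowest P of Pyy over 24 alternatives, and the adjusted P was at least 0.9538 in each.

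For Gcg the lowest, median and highest log2 ratios were 1.12, 1.84 and 2.34 in HF-low-low and 0.86, 2.08 and 2.19 in HF-low-suf colons. The lowest value of the 12 was that of HF-low-suf replicate 5, the array with the bright Cy5 signal. The difference was -0.01 (SE 0.24, 95% interval -0.53 to 0.51, exact permutation P of 0.970), and 0.18 (SE 0.21) without that mouse. On the first scan day it was 0.35 and on the second -0.37. Insl5 values were -1.51, -0.89 and -0.67 in HF-low-low and -1.23, -1.05 and -0.44 in HF-low-suf colons. Its difference was 0.04 (SE 0.18, 95% interval -0.35 to 0.43, exact permutation P of 0.833).

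Sst had the values 1.31, 1.90 and 2.11 in HF-low-low and 1.63, 1.79 and 2.06 in HF-low-suf colons, a difference of 0.04 (SE 0.16, 95% interval -0.29 to 0.38, exact permutation P of 0.788). Tph1 had the values 1.66, 1.94 and 2.36 in HF-low-low and 1.52, 1.97 and 2.15 in HF-low-suf colons. Its difference was -0.07 (SE 0.16, 95% interval -0.41 to 0.27, exact permutation P of 0.632), with 0.12 on the first scan day and -0.26 on the second. In both genes the ranges of the diets overlapped.

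Cck log2 ratios were -1.47, -0.71 and -0.48 in HF-low-low and -1.07, -0.88 and 0.42 in HF-low-suf colons. The difference was 0.19 (SE 0.25, 95% interval -0.34 to 0.72, exact permutation P of 0.556). Without HF-low-suf replicate 5, which carried the value of 0.42, it was -0.02 (SE 0.20).

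Neurod1, dim on every array, had log2 ratios of -0.45, -0.18 and 0.09 in HF-low-low and -0.11, 0.14 and 0.22 in HF-low-suf colons. The exact permutation P of this difference was 0.0173 and it was positive on 6 of 6 slides, while limma gave an unadjusted P of 0.060, which adjustment raised to 0.9999. Since neither channel was well above background, these ratios are no measure of the transcript. The same holds for the second probe of Chgb, whose difference of -0.53 had an unadjusted P of 0.0166 in limma.

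**Figure D4:**
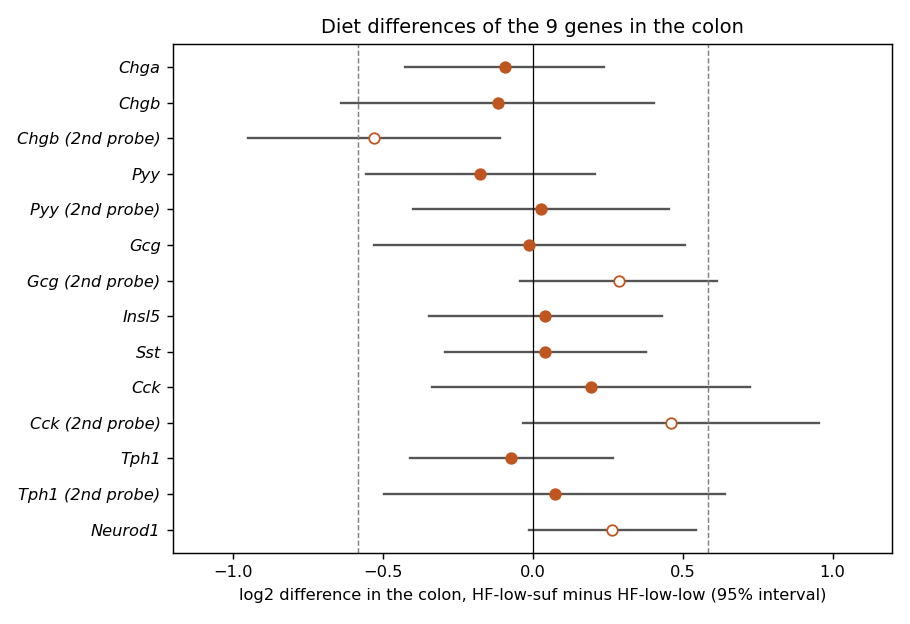
Log2 difference of HF-low-suf minus HF-low-low in the colon (horizontal axis; lines, 95% interval) for the 14 probes of the 9 genes (vertical axis), 6 mice per diet; open points were well above background on fewer than 6 colon arrays and dashed lines mark 1.5-fold changes. Among the filled points the differences run from -0.18 for Pyy to 0.19 for Cck, and each interval includes 0.

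In the fit of the 12 colon arrays, 6 of the 8 measured genes had 95% intervals inside a 1.5-fold change in either direction. Among these 6, Pyy and Gcg came near it, with lower ends of -0.56 and -0.53. The count was not repeated for other fits. The intervals reached beyond it for Chgb, with a lower end of -0.64, and for Cck, with an upper end of 0.72. With the slide as a block no member was called, and within slides the differences of the 8 measured genes took both signs. They ran from -0.60 to 0.31 for Chga and from -1.02 to 1.02 for Gcg. In liver, where 0.117% of probes passed the same threshold, no member was called either, with differences of 0.08 to 0.36 for the 8 genes, most of which were dim there. The liver array of HF-low-suf replicate 4, which stood apart in its Cy5 signal, had the highest liver ratio of each of these 8 genes. Without this mouse the liver differences were 0.14 for Chga, 0.074 for Cck, 0.031 for Chgb, -0.11 for Insl5 and between 0.00095 and 0.018 for the other 4 genes. Leaving out other mice raised them. Without HF-low-low replicate 6 they ran from 0.25 for Insl5 to 0.61 for Chga, with adjusted P values of 0.9982 in limma. Without HF-low-suf replicate 6 they ran from 0.20 for Insl5 to 0.55 for Chga. At an unadjusted P below 0.05 there were 2.13% of all liver probes and 0 of the 9 main probes. The difference of the diet effects between tissues was not called for any member, with adjusted P values of at least 0.7525 in limma, and for 0 of 41174 probes. At an unadjusted P below 0.05 6.45% of all probes passed, with 0 of the 9 main probes and the dim second probes of Chgb, Gcg and Cck.

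Of the genes in the lists, 1 was called between the diets in colon. St18, a zinc finger transcription factor, had a difference of 0.62 (SE 0.19) with an unadjusted P of 0.0053 in limma, which adjustment raised to 0.9999, and was well above background on 1 of 12 colon arrays. Of the 22 genes of prohormone processing and granules, 13 had a higher mean in HF-low-suf mice by the dyes in the labels. The median difference was 0.04, beside -0.01 over all probes. Of the 12 genes of enteric neurons and glia 5 were higher by the same dyes, with a median of -0.06. Since the direction of the diet differences is not settled, higher and lower would change places in both counts if the sign were turned.

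The last question was how the 9 genes varied together between mice. Over the 12 colons, 8 genes were well above background on 10 or more arrays. They gave 28 pairs, with a median Pearson correlation of 0.16. How often other pairs of probes reach the correlations given below in these colons was not tested. Chga and Chgb varied most closely together, with r of 0.91 (permutation P of 0.00022, adjusted over the 28 pairs 0.00616) and Spearman's rho of 0.80 (adjusted P of 0.0357 by permutation). Without the 2 colons farthest from the median of Chga, r was 0.90, and with the diet means taken out it was 0.91. Without HF-low-suf replicate 5 it was again 0.91.

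Pyy and Sst had r of 0.82 (adjusted permutation P of 0.0133) and rho of 0.82 (adjusted permutation P of 0.0357). Their r was 0.62 without the 2 colons farthest from the median of Pyy and 0.89 with the diet means taken out. Insl5 lay nearest to these genes, with r of 0.67 with Sst and 0.61 with Pyy, and adjusted permutation P values of 0.0562 and 0.105. Pyy and Gcg, both products of L cells, had r of 0.0049 (permutation P of 0.987).

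Gcg instead varied with the genes of the other pair. Its r was 0.75 with Chgb, 0.73 with Tph1 and 0.70 with Chga, and that of Chga with Tph1 was 0.73, with adjusted permutation P values between 0.0354 and 0.0490. For these 4 pairs rho was 0.51 to 0.76, with adjusted permutation P values of at least 0.0594. Without the 2 farthest colons r was 0.78 for Chgb with Gcg, 0.43 for Gcg with Tph1, 0.55 for Chga with Tph1 and 0.49 for Chga with Gcg, so that the last 3 rested partly on those colons. Between the groups, Chgb and Sst had r of -0.43 and Chga and Sst -0.25, neither past adjustment.

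**Figure D5:**
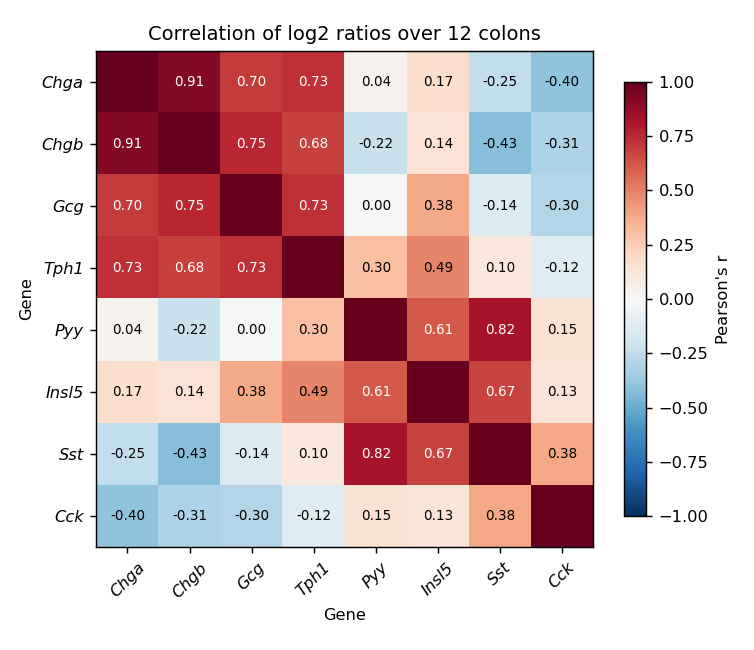
Pearson's r of log2 ratios over the 12 colons for each pair of 8 genes (both axes list the genes; colour and number give r). Chga, Chgb, Gcg and Tph1 had r of 0.68 to 0.91 among themselves, and Pyy, Insl5 and Sst had r of 0.61 to 0.82. These values were not compared with those of other pairs of probes.

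Marker genes moved with some of these. The mean log2 ratio of the 8 well detected neuron and glia genes had r of 0.77 with Chga and 0.78 with Tph1 over the 12 colons (permutation P adjusted over 24 relations of 0.00624 and 0.0133). Without the 2 farthest colons r was 0.66 and 0.62, and rho was 0.77 and 0.68 with an adjusted permutation P of 0.0979 for each. With Chgb, r was 0.65 (adjusted permutation P of 0.0689), and with Sst it was 0.03 (permutation P of 0.921). With Gcg and Cck it was 0.66 and -0.64 (adjusted permutation P of 0.102 and 0.184), and without HF-low-suf replicate 5 it was 0.29 and -0.02. The mean of 9 genes of colon epithelium had negative r with all 8 members, from -0.72 with Insl5 (adjusted permutation P of 0.0597) to -0.13 with Cck. Without the 2 farthest colons r was -0.48 with Insl5, 0.03 with Gcg and 0.15 with Cck, and without HF-low-suf replicate 5 it was -0.53 with Cck. For the 6 genes of smooth muscle r lay between -0.25 with Pyy and 0.32 with Chga, with adjusted permutation P values of at least 0.578. The part of tissue make-up in the correlations was not tested.

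Among 13793 probes detected in this way in each of the 12 colons, the 3 genes most like each of the 7 members detected there (Cck and Neurod1 were not) were named as a description, with no test. Those of Chga were Cp, Gypc and Mmrn2, with r of 0.95, 0.95 and 0.95, and those of Chgb were Mmrn2, Igfbp7 and Fzd1, with r of 0.97, 0.96 and 0.96. Mmrn2, a protein of blood vessel walls, was thus among the nearest genes of both chromogranins. Those of Sst were the ribosomal protein gene Rps7, B230369F24Rik and the ribosomal protein gene Rps24, with r of 0.92, 0.91 and 0.90. Those of Pyy were 2410166I05Rik, Zdhhc1 and BC025575, with r of 0.88, 0.87 and 0.87. Those of Tph1 were Rbp4, Rarres2 and Ggtla1 at 0.95, 0.92 and 0.91. Gcg had Adamdec1, the unnamed transcript TC1463322 and Kctd12b at 0.89, 0.89 and 0.87, and Insl5 had Klk1b5, Srd5a2l and Clps at 0.88, 0.87 and 0.87.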

How the data were processed

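RNA of 24 samples, colon and liver of 12 mice, was measured on 24 arrays on 6 slides. The groups are those of the labels. The intensity values deposited by the authors are mean spot signals in Cy3 (sample) and Cy5 (reference pool) and the median local background, as read by Feature Extraction 9.5.3.1, neither background corrected nor normalized. Probe positions are in build mm7, and the dyes were not swapped.

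Signals were corrected with normexp (offset 50) and normalized with limma 3.58.1 (R 4.3.3) by global loess. The 1639 control spots of 45018 and outlier spots were left out, and repeated spots were averaged to 41174 probes. Tissues were compared by lmFit and eBayes on differences within mice with diet as a covariate, and diets on the 12 arrays of a tissue, with no replicate block. The study's methods name global loess and limma. Single probes had two-sided exact permutation tests (924 assignments of mice, or 4096 sign changes), and correlations 100000 resamples. The number of arrays limits the precision.

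The replicate number marks the mouse between tissues and the slide between diets, per the array headers. Deviations of the 2 colons of a slide from their group means had r of 0.20, 0.225, -0.37, -0.18, 0.47 and 0.21 on slides 1 to 6. With other slides the mean r was -0.06 to 0.05. As the values within slides took both signs, the number was not taken to pair the diets.

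The 9 genes and the 12 gene lists were chosen with earlier results of these data known. Named from each list were up to 4 genes with the largest difference among those called and well above background on at least 6 arrays of the higher tissue, and any gene called between diets in colon. Tissue markers are given as counts. Gip, Ins1, Ins2, the dim mast cell genes and the genes set against the pool fall outside this rule and were named after their values were seen. Promoters are from RefSeq (GRCm38.p6), where all 9 genes matched. The tests were tested on simulated data. Alternatives covered background, normalization, dim probes, blocks, scan days, other probes and each mouse left out. The list of array targets and measurements of protein, methylation and histones were not used here.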

Additional observations from a re-analysis of the deposited data

Results flagged for a closer look

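The 9 genes in 4 groups of 6 arrays gave 36 sets of values, of which 2 had 1 array far from the other 5 by Dixon's test, where chance gives about 1.8. The liver of HF-low-low replicate 6 had an Insl5 log2 ratio of -1.16, beside -1.96 for the nearest of the others, and was well above background. The colon of HF-low-suf replicate 3 had a Neurod1 log2 ratio of -0.11, beside 0.10 for the nearest of the others, and was not well above background.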

How the results depend on the processing

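In the comparison of colon with liver, 8 members were called higher in colon under every alternative that kept their main probes. Cck passed narrowly, with a lowest difference of 0.586, just above the 1.5-fold threshold, and a highest adjusted P of 0.02175 in limma. With the mouse as a random replicate block 9709 probes were called and with no replicate block 9669, beside 9688. The differences of the second probes of Chgb and Cck, which were dim, had the opposite sign at -0.12 and -0.14, and that of Gcg was 0.05. Signals processed by Feature Extraction moved the median of all probes between tissues to 0.19, below the difference of each called member. Under it the differences were 2.26 for Cck, 1.68 for Insl5, 4.33 for Tph1, 3.99 for Sst and 5.77 for Gcg, beside 0.67, 0.98, 2.64, 2.67 and 3.89, and 5.92 for Chga, 7.68 for Chgb and 6.11 for Pyy, beside 4.82, 6.51 and 5.27.

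No member was called for diet in colon or in liver, or for the difference of the diet effects between tissues, under any alternative. The number of probes called in colon, 69 with 66 higher in HF-low-suf by the dyes in the labels (66 lower if the sign is turned to that of the study's lists), was 13 with no background correction, 26 with median centring (21 higher), 19 with Cy3 alone, 3 among brighter probes, 113 with scan day as a block, and 278 on scan day 1 alone (224 higher). On scan day 2 alone it was 103, with 57 higher and 46 lower. With signals processed by Feature Extraction 61 of 77 were higher. In liver the count of 48 was 12, 2, 24 and 2 under the first 4 of these. Leaving out each mouse in turn gave 23 to 257 probes in colon and 9 to 304 in liver, with the highest values without HF-low-low replicate 5 and replicate 3. With the slide as replicate block 92 probes were called in colon and 131 in liver. On scan day 1 alone the differences of Gcg and Tph1 were 0.35 and 0.12, where all 12 colons gave -0.01 and -0.07. Over all 12 colons the second probes of Pyy, Gcg and Tph1 had differences of 0.026, 0.29 and 0.07, opposite in sign to their main probes. For the 8 measured genes the differences under all alternatives with the main probes lay between -0.37 and 0.35. In these uncalled values the cause was not tested.

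Signals of the members in liver and of 4 probes in colon lay near background, which limits their ratios. Of the 6 correlations past adjustment, each kept its sign with Cy3 alone, from 0.67 to 0.90.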
